A study of Mus musculus with 16 samples.

Results

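The cytosolic ribosomal protein genes encode the proteins that, with ribosomal RNA, build both subunits of the ribosome that translates messages made in the nucleus. They were taken as the protein-coding rows of the gene count table whose symbol fits a pattern for large (Rpl) or small (Rps) subunit proteins, or is Rplp0, Rplp1, Rplp2 or Rpsa, with at least 160 counts summed over 16 libraries. The rule gave 64 genes of the 53801 rows, 26 of the small and 38 of the large subunit, out of 82 protein-coding rows that fit it, and all 64 passed the filter on low counts that left 10363 tested genes. The pattern does not take in every ribosomal protein gene, and the rule left out Rpl27 by name although its symbol fits. The rule uses the summed level of a gene and no difference between groups. Just inside the limit were Rps29 with 168 counts, and just outside was Rps13 with 155.

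The cortex of 16 C57BL/6 mice aged 12 to 12.93 months was sequenced from the 3' ends of messages, with 1 library per animal. The 6 WT saline animals (3 males, 3 females) were wild type and received saline. The 5 KO saline animals (4 males, 1 female) lacked Grn, which encodes the lysosomal protein progranulin, and also received saline. The 5 KO AAV animals (3 males, 2 females) lacked Grn and received 300000000000 vector genomes of AAV(L):bPGRN by tail vein, with a treatment duration of 8 months in the deposited annotation. That virus makes the liver express human progranulin fused to 8D3, an antibody fragment against the mouse transferrin receptor. The knockout serves as a model of progranulin loss in both groups, and mouse Grn remains absent in the treated animals.

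A ribosome carries a single copy of most ribosomal proteins, the P stalk proteins being the exception, and their messages are abundant in growing cells and in neurons. Most begin with a terminal oligopyrimidine (TOP) tract, a run of C and T at the first transcribed bases through which mTORC1 signalling sets their translation. Because control is largely at translation, message levels are one layer of the output of these genes. Mammalian genomes also hold many processed pseudogenes, intronless copies of ribosomal protein messages, which share 3' sequence with the parent gene.

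Library totals ran from 1351974 to 2119019 counts, with RNA integrity numbers of 8 in WT saline 3 and KO saline 4 and 9.2 to 9.6 elsewhere. Counts of Grn were 16 to 67 per wild-type library and 0 in all 10 knockout libraries, so the counts matched the genotype labels. All 9 cortical excitatory neuron markers looked for were detected over the 16 libraries together. Of 6 striatal markers 5 were detected, with Drd1 at 0, and their summed level ran from 128 to 832 CPM (counts scaled to TMM-adjusted library totals) in WT saline, 241 to 337 in KO saline and 176 to 588 in KO AAV. The summed level of 9 microglial markers ran from 474 to 606 CPM in WT saline, 638 to 882 in KO saline and 541 to 638 in KO AAV. The part of either list in the ribosomal protein values was not tested. In bulk tissue, fewer cells of a type and less RNA per cell cannot be told apart.

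The start regions of 4 members are shown because Rpl10, Rps16 and Rps4x had the largest spread between libraries of the members with an entry among RefSeq start regions, and Rpl27a was among the 4 most even. Rps26, Rpl22 and Rpl39, the others of those 4, had no RefSeq start within 50 bases of the start of their chosen annotated transcript. That of Rpl27a lay 48 bases away. Each line gives 200 bases before and 20 bases from the RefSeq transcription start on GRCm38.p6: Rpl10 at chrX:74270616-74270835 (plus strand), Rps16 at chr7:28350489-28350708 (plus strand), Rps4x at chrX:102189372-102189591 (minus strand) and Rpl27a at chr7:109518995-109519214 (plus strand). Capitals mark CCGGAAG or its reverse complement CTTCCGG (an ETS family core) anywhere in the window, and CTTTC, a TOP-like run, within 20 bases of the start on the gene strand.
Rpl10: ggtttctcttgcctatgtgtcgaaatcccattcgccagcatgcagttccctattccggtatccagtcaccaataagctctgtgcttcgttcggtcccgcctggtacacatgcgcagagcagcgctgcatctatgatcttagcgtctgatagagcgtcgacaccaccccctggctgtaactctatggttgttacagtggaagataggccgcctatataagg
Rps16: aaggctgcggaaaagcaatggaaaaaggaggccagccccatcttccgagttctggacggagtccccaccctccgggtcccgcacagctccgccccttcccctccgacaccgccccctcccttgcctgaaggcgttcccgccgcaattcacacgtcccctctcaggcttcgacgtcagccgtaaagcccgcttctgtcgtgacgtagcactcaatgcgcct
Rps4x: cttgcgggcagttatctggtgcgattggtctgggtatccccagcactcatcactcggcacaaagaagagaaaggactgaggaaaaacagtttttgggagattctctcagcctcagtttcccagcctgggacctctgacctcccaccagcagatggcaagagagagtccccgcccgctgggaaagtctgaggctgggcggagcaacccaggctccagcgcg
Rpl27a: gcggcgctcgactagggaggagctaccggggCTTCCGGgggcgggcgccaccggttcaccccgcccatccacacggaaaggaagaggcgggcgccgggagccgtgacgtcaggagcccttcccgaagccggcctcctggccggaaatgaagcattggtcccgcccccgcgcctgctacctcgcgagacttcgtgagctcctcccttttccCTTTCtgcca
Of the 64 members, 47 had an entry in RefSeq's table of start regions, with 56 windows of 250 bases before to 50 after a start. CCGGAAG on either strand was in 39.3% of these windows and in 8.86% of all 32851 windows of the table, which also holds non-coding genes. CTTTC within 20 bases of the start was in 23.2% of member windows against 5.49%, and AAGATGGC, the core of YY1 sites, on either strand in 12.5% against 2.75%. TATAAA within 50 bases before the start was in 1.79% against 2.63%. Of the windows printed, Rpl27a holds CTTCCGG and CTTTC, while Rpl10, Rps16 and Rps4x hold neither at those places. Among the other even members, Rps26 and Rpl39 hold CCGGAAG on either strand in the longer windows, and Rpl22 holds neither motif. Of other variable members, Rps7, Rpl6, Rps3a1 and Rpsa hold CCGGAAG there, and Rpl36a and Rps12 do not. Any tie between these motifs and spread was not tested.

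Counts were taken at 3' ends, so a message gives tags whatever its length, and CPM were not divided by length. Sharing of 3' sequence was counted as well. Of all 75-base windows in the last 500 bases of 1 annotated transcript per gene, a median of 42.8% for the 64 members was also found in a transcript of another gene, and 24 of 64 members shared more than 50%. Among the 18 rows under the count limit the median was 76.8%, and 12 shared more than 50%. Across the 64 members, Spearman's rho between the shared percent and mean CPM was -0.47, a description over genes that share the same libraries. Rps6 and Rpl24, components of every ribosome, had 1 count each over 16 libraries and shared 90.14% and 88.97% of these windows. Rpl10a had 7 counts with 92.49% shared. Rpl11, partner of Rpl5 in the 5S ribonucleoprotein, had 98 counts with 39.91% shared, and Rpl28, a large subunit protein, had 49 counts with 0.0% shared. The transcripts chosen for Rpl28, Rpl12 and Rps16 ended in 559, 500 and 516 untranslated bases, and that for Rps6 in 42. Where the tags of these genes ended was not checked, so a share of 0.0% holds for the chosen transcript only. What part sharing plays in any level was not tested.

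**Figure D1:**
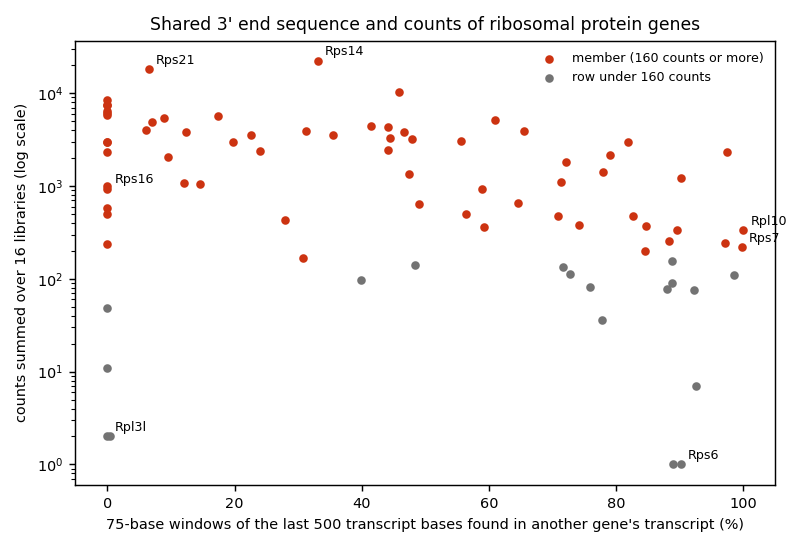
Counts summed over 16 libraries (vertical, log scale) against the percent of 75-base windows in the last 500 transcript bases found in another gene's transcript (horizontal), 1 point per ribosomal protein gene. Red points are the 64 genes with 160 counts or more, and grey points the 18 rows below; Rps6 with 1 count lies at 90.14%.

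Levels differed widely between members. Rps14, a small subunit protein, was highest with a mean of 830 CPM over 16 libraries, followed by Rps21 with 664, Rplp1 with 379, Rps3 with 310 and Rpl37 with 281. Rps29 (6.01), Rpl36a (7.30), Rps7 (8.21), Rpl12 (8.59) and Rpl9 (9.16) were lowest. Among the lowest, Rpl9 shared 97.18% and Rps7 99.77% of the 3' windows, while Rpl12 shared 0.0%. In the P stalk, the lateral protein arm that recruits elongation factors, Rplp1 was higher than Rplp0 (130 CPM) and Rplp2 (132 CPM). Rpsa, a small subunit protein also known as a laminin receptor, had 13.8 CPM, and Rpl5 had 36.6.

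As a share of all counts, the 64 genes together held 0.770% ± 0.0804 in WT saline libraries (SD, n = 6), 0.717% ± 0.0363 with Grn lost (KO saline, n = 5) and 0.732% ± 0.0570 after treatment (KO AAV, n = 5). The libraries ran from 0.656% to 0.869% in WT saline, from 0.674% to 0.753% in KO saline and from 0.683% to 0.820% in KO AAV, so the ranges overlapped. Without Rps14, Rps21 and Rplp1, the most abundant, the share was 0.575%, 0.534% and 0.556%. Leaving mitochondrially encoded counts out of the total gave 1.00% ± 0.0991, 0.962% ± 0.0715 and 0.954% ± 0.0833.

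Loss of Grn, KO saline against WT saline, called none of the 64 ribosomal protein genes at an adjusted p of 0.05 (edgeR quasi-likelihood test with Benjamini-Hochberg adjustment over 10363 genes), where 0.0482% of all tested genes were called. The lowest adjusted p of a member was 0.994. At an unadjusted p of 0.05, 2 members passed, Rpl17 and Rpl10, both higher, against 4.11% of all genes. DESeq2 also called none. The median member log2 change was -0.06 against 0.00 over all genes, with 24 of 64 members above 0 where 50.9% of all genes were. Median changes were -0.06 for the small and -0.04 for the large subunit. For 32 of the 64 members the 95% interval of the change lay within 0.5 on the log2 scale either way, and for 58 within 1. Changes beyond 0.5 in size were fitted for 4 of 64 members and 4.24% of all genes. No member separated the groups completely, where 0.396% of all genes did.

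Rpl17, which lines the peptide exit tunnel, had 9.41, 11.9 and 15 CPM as lowest, median and highest in WT saline. In KO saline it had 22.6, 22.2, 13.9, 13.9 and 17.3 CPM, 2 of which lay within the wild-type range. Its log2 change was 0.57 (SE 0.20, unadjusted p = 0.00805 and adjusted p = 0.994 in edgeR). Rpl10, added late to the large subunit, had 0.554, 3.93 and 20.9 CPM as lowest, median and highest in WT saline. In KO saline it had 2.42, 55.6, 3.09, 19.7 and 26.6 CPM, 2 low libraries beside 3 high. Its log2 change was 1.56 (SE 0.69, unadjusted p = 0.0345 and adjusted p = 0.994 in edgeR), and it ran from 0.90 without KO saline 2 to 2.14 without WT saline 5. Rps7 and Rps27l were the next members above 0, with log2 changes of 0.67 and 0.16, and Rps7 stood at 0.35 without KO saline 2. Rps29, Rpl15, Rps20 and Rps24 were the lowest in p below 0, with -0.59, -0.27, -0.32 and -0.15, and none passed an unadjusted 0.05. Rps20 ran from -0.45 without KO saline 1 to -0.09 without WT saline 4 and stood at -0.02 in males alone, and Rps29 stood at -0.39 without KO saline 2.

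Treatment, KO AAV against KO saline, likewise called none of the 64 genes, where 0.0193% of all genes were called, and the lowest adjusted p was 1. Unadjusted, 2 members passed, Rps29 higher and Rpl17 lower, against 2.49% of all genes. DESeq2 called none of the 64. The median member change was -0.01 beside -0.01 over all genes, with 29 of 64 above 0 beside 47.6% of all genes. The 95% interval lay within 0.5 for 33 members and within 1 for 57, and 3 members had a fitted change beyond 0.5 against 3.02% of all genes.

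Rps29, a zinc-binding small subunit protein, had 4.03, 1.48, 6.18, 4.63 and 4.32 CPM in KO saline and 5.35, 8.47, 11.7, 6.2 and 6.85 in KO AAV, from 2 to 22 counts a library. Its log2 change was 0.89 (SE 0.36, unadjusted p = 0.021 and adjusted p = 1 in edgeR). Rpl15, a large subunit protein, was the single member whose groups did not overlap, where 0.502% of all genes did not. It had 61.3, 81.5, 54.8, 81.0 and 86.5 CPM in KO saline and 96.4, 96.0, 90.8, 90.2 and 93.4 in KO AAV, means of 73.0 ± 14 and 93.4 ± 2.87 (SD, n = 5). The KO AAV values lay within the WT saline range of 56.4 to 111 CPM. Its log2 change was 0.35 (SE 0.18, unadjusted p = 0.0597 and adjusted p = 1 in edgeR), and 0.17 without the 4 libraries described below as lowest on the first component. Rpl17 had a log2 change of -0.42 and was at 16.1, 9.60, 12.3, 13.0 and 15.6 CPM in KO AAV. The contrast shares the KO saline libraries with the one above, so opposite signs for Rpl17 and Rps29 in the pair are not separate observations. Rpl30 and Rps12 stood at 0.35 and 0.44, and Rps14, Rpl37 and Rpl10 at -0.26, -0.32 and -0.997. Rpl10 ran from -1.44 without KO AAV 2 to -0.34 without KO saline 2, and stood at -0.02 with the first component of the other genes as a term. Without the 4 libraries named for Rpl15, Rpl37 stood at 0.03 and Rps14 at -0.04.

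KO AAV against WT saline called none of the 64 genes, where 0.00965% of all genes were called, with a lowest adjusted p of 0.881. None passed an unadjusted 0.05, against 4.02% of all genes, and DESeq2 called none. With the first component of the other genes as a term 14 members passed an unadjusted 0.05, with no count filter 8 and with RNA integrity as a term 5, and none was called after adjustment. In the same order, 11, 6 and 8 members passed in KO AAV against KO saline, and 4, 5 and 2 in KO saline against WT saline. The most in KO saline against WT saline were 10, without the 4 libraries described below as lowest on the first component. With the mitochondrial percent as a term 8 passed there. The share of all genes that passed in these fits was not counted, so the rise cannot be read as particular to the members. The median change was -0.04 beside 0.00 over all genes, and 28 of 64 were above 0. The largest changes among low p above 0 were Rps4x at 0.65, Rpl6 at 0.56, Rps12 at 0.51 and Rps27l at 0.23. Below 0 were Rpl29 at -0.37, Rpl26 at -0.30, Rps10 at -0.28 and Rps14 at -0.21. Changes beyond 0.5 in size were fitted for 4 members and 3.55% of all genes. No member separated the groups, where 0.318% of all genes did.

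**Figure D2:**
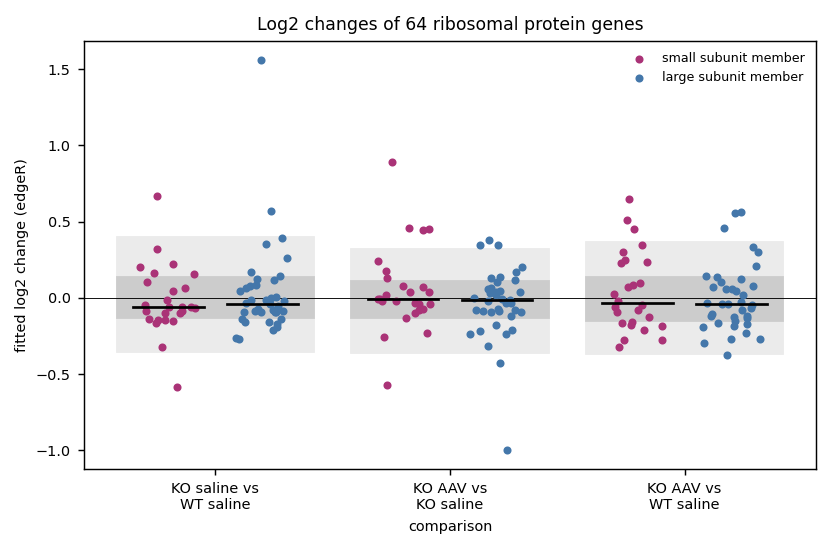
Fitted log2 change of the 64 genes in the 3 comparisons (vertical), with small subunit members in purple and large subunit members in blue and a black line at each median. Pale and dark grey boxes span the 5th to 95th and the 25th to 75th percentiles of all tested genes; Rpl10, at 1.56 in KO saline against WT saline, lies furthest out.

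In KO saline against WT saline, Rplp0 changed by 0.01, Rplp1 by -0.17 and Rplp2 by -0.01 on the log2 scale, and the intervals of Rplp0 (-0.26 to 0.28) and Rplp2 (-0.30 to 0.28) stayed within 0.5, while that of Rplp1 ran from -0.51 to 0.17. Rpsa was at -0.15 with an interval of -0.83 to 0.52, and Rpl5 at 0.08 with -0.23 to 0.39. Of the paralogs, Rpl22l1, which can replace Rpl22, had 112 CPM against 180 for Rpl22, with log2 changes of 0.17 and -0.04. Rps27l stood at 0.16, and Rpl7l1 and Rpl7 at -0.16 and 0.13. On chromosome 11, which carries Grn, Rpl23 lies 4.65 Mb from it, Rpl38 12.23 Mb and Rpl26 33.52 Mb, and their log2 changes in KO saline against WT saline were -0.09, -0.14 and -0.09.

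Libraries of the same group differed from each other, and part of the members moved together between them. The first principal component of log2 CPM held 61.8% of the variance of the 64 genes and 33.6% of the variance of the other tested genes, and with group means removed 64.6% and 35.2%. The sets differ in size (64 and 10299 genes), so these shares are not like for like. Genes were not scaled to equal variance, so the most variable members weigh most, and Rpl10 had the largest loading at 0.497. The 4 lowest libraries on the members' component were WT saline 4, KO saline 3, KO saline 1 and WT saline 1, and the same 4 were lowest on the component of the other genes. Their totals were 1849280, 1351974, 1387658 and 1633474 counts, their mitochondrial shares 24.4%, 26.2%, 29.8% and 23.4%, and their RNA integrity numbers 9.2 to 9.3. Both WT and KO saline hold 2 of the 4 and KO AAV none. In the order named, the median log2 deviation of members from their own means was -0.058, -0.054, 0.132 and -0.086. The other libraries spanned -0.146 to 0.16, so the family as a whole did not stand apart in the 4. In the same order, the summed level of oligodendrocyte precursor markers was 121, 163, 169 and 198 CPM, against 227 to 318 in the other 12 libraries, and that of cortical excitatory neuron markers 4174, 3400, 3930 and 3241, against 2279 to 3567. These 2 lists were picked from several. Astrocyte markers, at 9264, 10220, 11500 and 8957 CPM in that order, overlapped with the 8665 to 10560 of the other libraries. The endothelial and thalamic lists overlapped too. The part of these marker levels in the component was not tested. Fits with the mitochondrial percent, the RNA integrity number or the first component of the other genes as a term called none of the 64 genes in any comparison (edgeR).

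Members differed in how far they moved. The median within-group SD of log2 CPM was 0.298 over the 64 genes and 0.309 over all genes, but 12 of 64 (18.8%) exceeded 0.5 against 11.7%, and 33 of 64 (51.6%) had a biological coefficient of variation above the edgeR trend for their level against 33.5%. Rpl10 was the most variable, with an SD of 1.48 and 1 count in WT saline 4 beside 75 in KO saline 2. Rps16 followed with 0.90, Rpl7 with 0.86 and Rps4x with 0.78. At the other end were Rps26 with 0.12, Rpl27a with 0.14, Rpl22 with 0.14 and Rpl39 with 0.14.

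Rps16, a small subunit protein, had 9.42, 32.2 and 48.1 CPM as lowest, median and highest in WT saline. In KO saline it had 8.87, 40.0, 7.72, 55.6 and 35.2, and in KO AAV 58.9, 49.7, 41.6, 29.3 and 28.7. WT saline 4 and KO saline 1 and 3 were low together. Rpl7, a large subunit protein beside the 5S RNA, had 5.54, 23.1 and 36 in WT saline, and 13.7, 30.4, 4.63, 35.9 and 32.7 in KO saline. Its KO AAV values were 33.2, 32.2, 23.5, 27.1 and 19.3. KO saline 3 and WT saline 4 were lowest, followed by WT saline 1 and KO saline 1 at 13.0 and 13.7. Rps4x, encoded on the X chromosome, had 8.31, 20.3 and 31.5 in WT saline and 7.26, 30.4, 10, 36.5 and 23.5 in KO saline. Of the 12 most variable genes, 11 or 12 were below their own mean in each of the 4 libraries, and 11 were also below it in KO AAV 5. Low values in the 4 libraries enter the spread by which these 12 were ranked, so this is not a separate observation.

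Several members were high in WT saline 4. Rps20, a small subunit protein, had 476 CPM in WT saline 4 and 172 to 281 in the other WT saline libraries, and Rps20, Rpsa, Rpl26, Rpl13 and Rpl37 had the lowest loadings on the component. Rps26, whose protein sits at the mRNA exit, had 111, 122 and 139 CPM as lowest, median and highest in WT saline, 105 to 133 in KO saline and 118 to 141 in KO AAV. Leaving out the 4 libraries brought the median SD to 0.243 over the 64 genes and 0.259 over all genes, and the share over 0.5 to 6.25% and 6.44%. Rps16 then had 0.36 and Rpl7 0.27, while Rpl10 had 1.03. The 4 libraries were picked as the lowest on the members' own component, so a lower SD of the members without them follows in part from that choice.

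**Figure D3:**
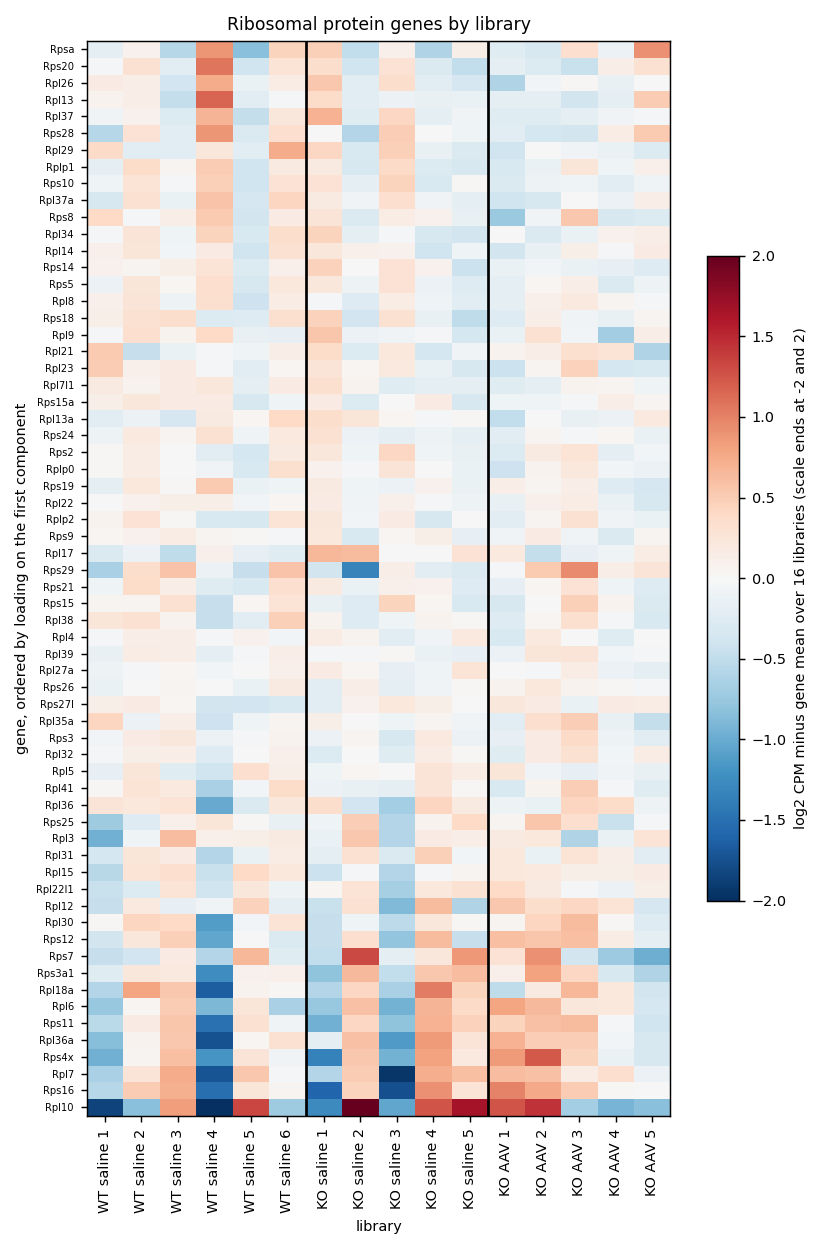
Log2 CPM of the 64 genes (rows, ordered by loading on the first component) in 16 libraries (columns), as the difference from each gene's mean; black lines part the groups. WT saline 1 and 4 and KO saline 1 and 3 are blue in the lowest rows, which end with Rpl10, and WT saline 4 is red in the top rows, which begin with Rpsa and Rps20.

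**Figure D4:**
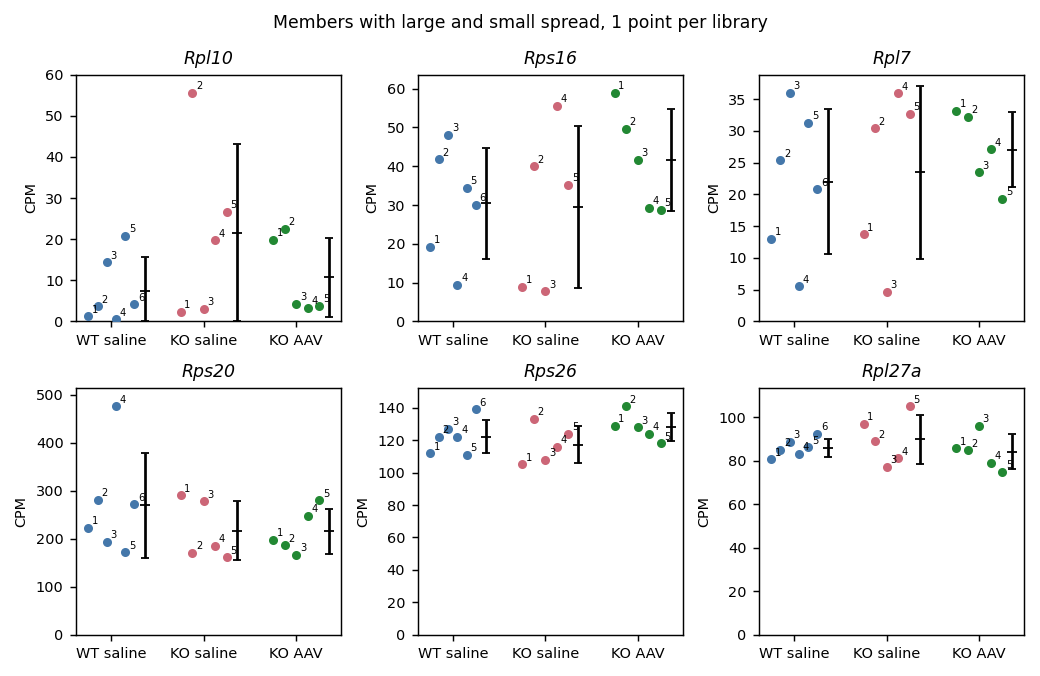
CPM of Rpl10, Rps16, Rpl7, Rps20, Rps26 and Rpl27a, 1 point per library with its replicate number, and the mean and SD of each group in black (cut at 0 for Rpl10). Rpl10 runs from 0.554 to 55.6 CPM, while Rps26 stays between 105 and 141 CPM.

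The spread moved with 3' sharing as well: across the 64 genes, Spearman's rho between the shared percent of 75-base windows and the within-group SD was 0.44. The shared percent was also higher at lower mean CPM (rho -0.47), and sharing and level were not separated. All of the windows of Rpl10 (100%) were shared, with 11 other genes, 10 of them pseudogenes. Rps16 had the second largest SD and shared 0.0% of the windows of its chosen transcript, with the limit given above. Of 247 rows named as ribosomal protein pseudogenes, 11 passed the count filter. Any part of pseudogene sequence in the swings was not tested.

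**Figure D5:**
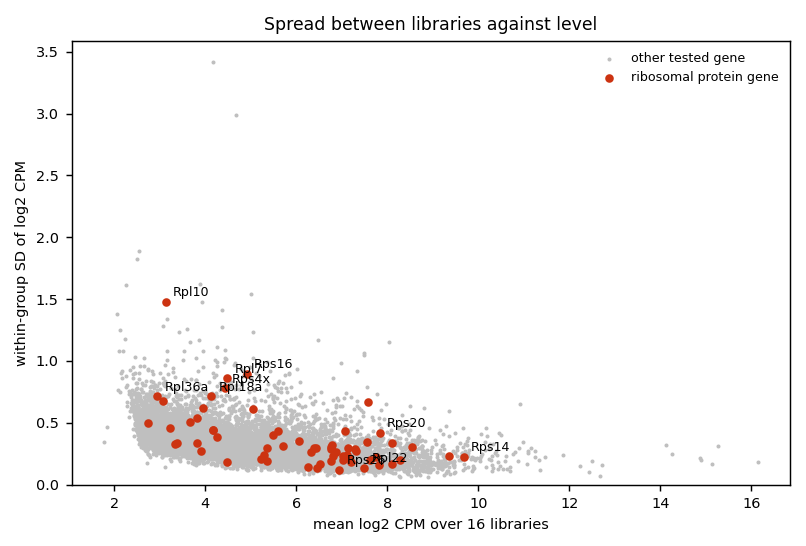
Within-group SD of log2 CPM (vertical) against mean log2 CPM over 16 libraries (horizontal), 1 point per tested gene, with the 64 ribosomal protein genes in red. Rpl10 lies at 1.48 and Rps26 at 0.12.

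Other genes of translation were read from lists chosen by function. Each list was described and not tested as a set. None of their tested genes was called in any of the 3 comparisons in edgeR, neither 12 elongation and release factors, 38 initiation factors, 18 other TOP messages, 49 ribosome biogenesis genes, 16 genes of TOP and S6 kinase signalling nor 70 mitochondrial ribosomal proteins. In KO saline against WT saline, where 50.9% of all genes were above 0 with a median of 0.00 and 4.11% had an unadjusted p under 0.05, the median log2 changes were 0.12 for elongation and release factors (8 of 12 above 0), -0.04 for initiation factors (12 of 38), 0.01 for other TOP messages (11 of 18), -0.05 for ribosome biogenesis (22 of 49), 0.07 for the signalling genes (11 of 16), -0.08 for mitochondrial ribosomal proteins (18 of 70, with 5 at an unadjusted p under 0.05) and -0.14 for the pseudogenes (3 of 11). Vim, an intermediate filament gene with a TOP message, had the lowest p of these lists, with 29.8 ± 5.25 CPM in WT saline (SD, n = 6), 44.7 ± 5.83 in KO saline and 31.9 ± 3.54 in KO AAV (n = 5 each), and an adjusted p of 0.565 in edgeR for a log2 change of 0.59. The pseudogene row Rps16-ps2 changed by 1.15 (unadjusted p = 0.00323 in edgeR). Of the mitochondrial ribosomal proteins, Mrps23 changed by -0.47 and Mrpl11 by -0.38 (unadjusted p = 0.00425 and 0.0196 in edgeR). Rptor, which encodes the raptor subunit of mTORC1, changed by 0.61 (unadjusted p = 0.0232 in edgeR). Tsr1, a ribosome biogenesis gene, and Eif4e, the cap-binding factor, changed by -0.44 and -0.33 (unadjusted p = 0.041 and 0.0411 in edgeR). The adjusted p of each of these was 0.994. Among ribosomal proteins outside the symbol rule, Rack1, deposited as Gnb2l1, had 258 ± 24.3, 251 ± 23.7 and 239 ± 15.7 CPM in WT saline, KO saline and KO AAV. Fau, which encodes a small subunit protein fused to a ubiquitin-like peptide, had 5.51 ± 1.89, 5.67 ± 3.14 and 8.33 ± 1.39.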

How the data were processed

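Cortex RNA of 16 mice was read with QuantSeq 3' libraries carrying unique molecular identifiers, per the labels' protocols. Build GRCm38.p6 with edgeR 3.40.2, R 4.2, STAR, MultiQC 1.0 and FastQC 0.11.5 is named in the submitters' processing notes. The annotation, counter and strand setting used upstream were not given in the sources used here. Raw counts were deposited by the authors for 53801 rows, each with at most 2 significant digits, so 56% of member values (those of 100 or more) are rounded by up to 5%. A depth-scaled signal table (CPM) that the authors made serves 1 alternative, and their sample annotation holds the normalization factor of each library, a ratio, and the RNA integrity score, both as deposited.

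Counts were filtered with filterByExpr, TMM-scaled and tested in 1 edgeR quasi-likelihood fit of all 16 libraries (R 4.3.3, edgeR 4.0.16, limma 3.58.1, DESeq2 1.42.0), tested on simulated data; log2 CPM used a prior count of 2. Libraries are separate animals. Members and lists were chosen with earlier results of these data known. Named genes are the 4 lowest p each way per comparison, extremes of level and spread, and P stalk, paralog, 5S and chromosome 11 members. Of the 3 lowest p per list and comparison, only some are named. Rpl13, Rps6, Rpl24, Rpl10a and Rpl28 were chosen after seeing values. 3' windows came from GENCODE M21 transcripts and start regions from RefSeq. Intervals cover the fit, not rounding.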

Additional observations from a re-analysis of the deposited data

Results flagged for a closer look

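In 114 group values examined for 37 members and the shares, 5 held 1 library whose gap to the nearest other, divided by the range of the group, exceeded Dixon's 95% critical value. That is 4.39%, where the choice of that value gives about 1 in 20 by chance. Rps20 had 476 CPM in WT saline 4 and 172 to 281 in the others. Rpl9 had 13.7 CPM in KO saline 1 and 6.79 to 8.68 in the others. Rps24 had 339 CPM in KO saline 1 and 239 to 255 in the others. Rpl5 had 42.8 CPM in KO AAV 1 and 32.0 to 34.5 in the others. Rps27l had 36.3 CPM in KO AAV 3 and 44.2 to 46.6 in the others. WT saline 4 and KO saline 1 are among the 4 libraries lowest on the first component, and the reason for their place was not tested.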

How the results depend on the processing

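Over 34 alternatives in each comparison, among scaling, filters, DESeq2, limma, covariates, sex, RNA integrity, a replicate block and leaving out each library, no member was called except with no count filter, where 1 was called in KO saline against WT saline: Rpl10, log2 change 1.53, adjusted p = 2.64e-05 in edgeR. The cause was not tested. The median member change ran from -0.114 to -0.006, from -0.053 to 0.054 and from -0.087 to 0.016. Genes called in KO saline against WT saline were 16 with no count filter, 2 in males alone, 3 with the replicate block and 4 to 5 without single libraries. In KO AAV against KO saline they were 4 with no count filter, 1 at a mean CPM of at least 5, 0 with limma on the deposited CPM, 1 without the 2 libraries of RNA integrity 8, 0 in males alone, 1 with the replicate block, 4 with the first component of other genes as a term and 1 to 2 without single libraries. In KO AAV against WT saline they were 2 with no count filter and 33 with that component as a term. The component term and the fit without the 4 libraries lowest in Rpl10 were chosen after seeing the data. Rps27l turned to -0.056 and -0.008 in males alone in the comparisons of KO saline and of KO AAV with WT saline, and Rpl37 in KO AAV against KO saline to 0.025 without those 4 libraries. The member share was 1.00, 0.962 and 0.954% without mitochondrial counts in the total and 0.575, 0.534 and 0.556% without the 3 most abundant members. The labels do not say whether same-numbered animals were paired. Between same-numbered libraries, 5 of 15 correlations of deviations from group means exceeded 0.1, from -0.431 to 0.444, which cannot settle it. Depth of 2 to 22 counts a library limits Rpl36a and Rps29. Other members were shallow too, among them Rps7 with 5 to 27, Rpl12 with 5 to 23 and Rpl10 with 1 to 75 counts.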
